A study of Mus musculus with 25 samples.

Results

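The RNA of 10 genes of serine synthesis and the integrated stress response was followed in mouse oocytes arrested at metaphase II (MII), in zygotes at pronuclear stage PN3, and in early (E2C) and late (L2C) 2-cell embryos. The genes were taken by symbol: Phgdh, Psat1, Psph, Shmt2, Asns, Atf4, Ddit3, Chac1, Trib3 and Sesn2, that is Atf4 and a set of its metabolic and stress targets. All 10 were among the 24412 symbols measured in every library. Smarca4 KO libraries numbered 2 of MII, 4 of PN3, 3 of E2C and 3 of L2C, and wild-type (WT) libraries 3, 4, 3 and 3 of the same stages, 25 in all. Smarca4, also called Brg1, encodes an ATPase of the BAF chromatin remodelling complex. Females of 8 to 12 weeks were either B6D2F1 or C57BL/6 carrying Smarca4flox/flox and Gdf9 Cre, a driver that acts in oocytes. They received 7 IU of PMSG and 5 IU of hCG 48 h later, and embryos came from sperm injection. The strain behind each library is not stated, so strain and genotype cannot be told apart. Whether replicates came from separate females is not stated, so p-values measure the spread between these libraries, which may be technical.

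Cells make serine from the glycolytic intermediate 3-phosphoglycerate through Phgdh, Psat1 and Psph in turn, and mitochondrial Shmt2 splits serine into glycine and a one-carbon unit used for nucleotides. Under amino acid shortage or stress in the endoplasmic reticulum or mitochondria, kinases phosphorylate eIF2alpha, general translation falls and the mRNA of the transcription factor Atf4 is translated better. Atf4 is therefore set largely at translation, so its RNA level does not measure its activity. With C/EBP partners it is known to activate serine synthesis genes, Asns, Ddit3, Chac1, Trib3 and Sesn2.

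Levels are FPKM (fragments per kilobase of transcript and library size, so per length), rescaled between libraries. Differences are on the log2(scaled FPKM + 1) scale, which understates the change of low genes. FPKM carry no read counts, so the depth behind each value is unknown. They are relative to the rest of a library's RNA, and in these bulk samples fewer cells of a type and less RNA per cell cannot be told apart. Deposited values summed to between 216308 and 252440 per library. Smarca4 was 0.219 to 0.221 in KO and 25.97 to 30.5 in WT oocytes, 0.222 to 0.448 in KO and 29.6 to 33.2 in WT zygotes, 0.767 to 5.12 in KO and 18.98 to 34.9 in WT early embryos, and 21.03 to 22.5 in KO and 48.5 to 90.4 in WT late embryos. It was called lower in KO at all 4 stages. The late call ended without WT E2C replicate 2, WT L2C replicate 1 or 2 or KO L2C replicate 2 or 3 (adjusted p = 0.0518 to 0.194), and with a pseudocount of 0.1 (0.0589) and with only the groups compared (0.295). The early call ended with only the groups compared (0.431). The median SD within groups (log2) was 0.079 for oocytes, 0.13 for zygotes, 0.35 for early and 0.32 for late embryos. The fit therefore weighted each stage by its spread, and results that change with 1 spread shared by all stages, or with only the groups compared, are marked so. WT E2C replicate 2 stood apart, with 9345 genes above 0 against 13585 to 16698 in the others, and Phgdh, Psph, Asns, Chac1 and Trib3 were listed at 0 in it. Rn45s is the ribosomal RNA precursor, and whether its level reflects the removal of ribosomal RNA or the stage was not tested. It was 285 to 324 in oocytes, 463 to 1033 in zygotes and 1393 to 2607 in late embryos. In early embryos it was 812, 1029 and 10915 in KO and 2595, 2208 and 7357 in WT, highest in replicate 3 of each genotype, and its part in the results was not tested. The 10 oocyte markers averaged at least 1 in every group, while blood and immune markers summed to at most 1.66 per library, cumulus and granulosa markers to 0.536 to 6.75, and sperm and testis markers to 1.57 to 8.96 apart from 20.8 in KO E2C replicate 2. In oocytes Cyp19a1 made up most of the cumulus and granulosa sum, averaging 4.99 in KO and 5.98 in WT. Prm2 made up most of the sperm and testis sum there, averaging 7.75 in KO and 6.06 in WT.

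The 10 genes covered a wide range of levels. In oocytes Atf4 averaged 64.1 ± 2.8 in KO and 68.2 ± 4.66 in WT, and Ddit3 46.8 ± 1.51 in KO and 35.2 ± 3.29 in WT (scaled FPKM, SD, n = 2 and n = 3). Shmt2 followed with 10.9 ± 0.298 in KO and 9.4 ± 0.407 in WT, and Phgdh with 4.14 ± 0.0966 in KO and 4.76 ± 0.463 in WT. The library ranges of these 4 neighbours stood apart in both genotypes, and the other 6 genes had means under 1. In late 2-cell embryos Atf4 was still first, and Sesn2 had moved to the next place, with 49.4 ± 7.43 in KO and 96.4 ± 21.8 in WT (SD, n = 3 each), its range apart from those of its neighbours. Psat1 came after it, and its range overlapped that of the gene below, Ddit3 in KO and Phgdh in WT. In the lower ranks Shmt2, Trib3, Ddit3 and Phgdh changed places between genotypes, mostly with overlapping ranges.

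**Figure D1:**
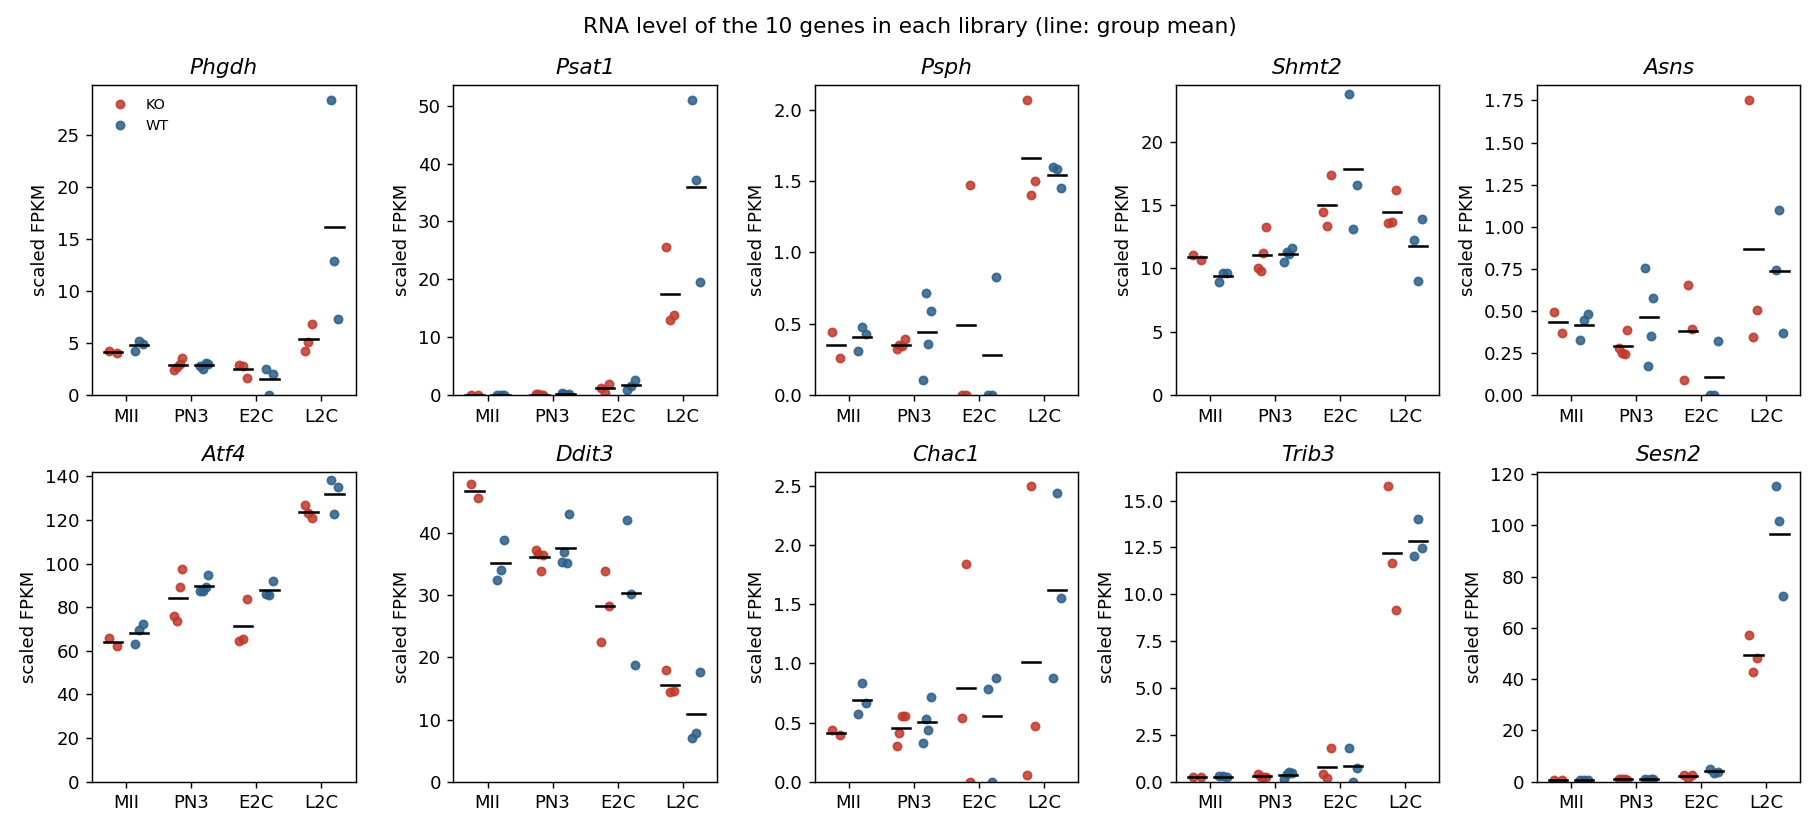
Scaled FPKM (y axis) of each of the 10 genes in each library, by stage (x axis), KO in red left of WT in blue; points are libraries and lines are group means. Psat1, Trib3 and Sesn2 lie near 0 in oocytes and zygotes and are high in all 6 late 2-cell libraries, whereas Ddit3 is lowest in the late 2-cell libraries.

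Promoters of 4 of the genes are shown because all 4 are textbook Atf4 targets and yet behaved differently here: Sesn2 and Trib3 rose steeply at the 2-cell stage, and Asns and Chac1 stayed low. Each run is the 250 bases before the RefSeq start (GRCm38.p6), 5′ to 3′ on the gene's strand, and all 10 genes had a RefSeq entry. Capitals mark matches on either strand to TGATGNAA, a form of the ATF4-C/EBP composite element, or TGACGNAA, which holds the core of ATF and CREB sites. The runs lie at chr4:132510457-132510706 on the minus strand (Sesn2), chr2:152344061-152344310 on the minus strand (Trib3), chr6:7693210-7693459 on the minus strand (Asns) and chr2:119350992-119351241 on the plus strand (Chac1).
Sesn2 promoter: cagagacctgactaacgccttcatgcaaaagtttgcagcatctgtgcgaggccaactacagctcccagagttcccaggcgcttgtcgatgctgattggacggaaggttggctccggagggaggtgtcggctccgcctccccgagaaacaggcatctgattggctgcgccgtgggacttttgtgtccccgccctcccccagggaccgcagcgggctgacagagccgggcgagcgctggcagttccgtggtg
Trib3 promoter: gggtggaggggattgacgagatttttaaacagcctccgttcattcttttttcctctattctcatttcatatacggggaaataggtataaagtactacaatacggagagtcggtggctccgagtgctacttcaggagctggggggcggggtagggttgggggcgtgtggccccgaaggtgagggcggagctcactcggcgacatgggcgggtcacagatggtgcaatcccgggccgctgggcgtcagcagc
Asns promoter: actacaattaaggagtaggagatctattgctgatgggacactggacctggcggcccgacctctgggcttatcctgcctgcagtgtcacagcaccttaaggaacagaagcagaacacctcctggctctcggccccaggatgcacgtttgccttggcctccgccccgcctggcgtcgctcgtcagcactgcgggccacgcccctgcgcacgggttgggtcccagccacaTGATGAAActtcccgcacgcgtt
Chac1 promoter: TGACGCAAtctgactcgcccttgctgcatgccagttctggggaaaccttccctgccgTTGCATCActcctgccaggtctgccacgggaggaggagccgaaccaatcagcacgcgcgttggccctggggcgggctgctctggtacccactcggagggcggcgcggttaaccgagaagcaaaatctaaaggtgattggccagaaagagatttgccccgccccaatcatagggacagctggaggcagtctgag
TGATGNAA was in the promoters of 2 of the 10 genes, in Asns 23 to 16 bases before the start on the gene's strand and in Chac1 193 to 186 bases before it on the other strand, and in 3.45% of all 32851 promoters of this length. TGACGNAA was in Chac1, 250 to 243 bases before the start, and in 1.39% of all promoters. Neither run of letters was in the windows of Sesn2, Trib3, Psat1 or Phgdh. Other spellings of the composite element were not searched for and are not in capitals. The windows of Trib3 and Psat1 hold the close spelling TGGTGCAA. The lack of a match is therefore no sign that a gene lacks such an element. A match describes letters and is no evidence of a bound site.

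A gene was tested where at least 3 of the 25 libraries reached an FPKM of 1, which 9 of the 10 did. Asns reached it in 2 libraries. Chac1 reached it in 4, Psph in 7, Trib3 in 8 and Psat1 in 10 libraries, all of them 2-cell libraries, so these genes entered the tests through the stages where they are high. Counts over the 9 genes are therefore a description. The same holds for the stage tests of Chac1, Psph, Trib3 and Psat1, whose late p-values are not separate support for a rise.

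The largest changes lay between early and late 2-cell embryos, the stage of the main wave of embryonic transcription in the mouse. Against E2C, 5 of the 9 genes were higher and 1 lower in KO, where 26.8% of all 12079 genes tested were called higher and 14.0% lower (limma, p adjusted over all genes under 0.05). In WT 6 were higher and 1 lower, against 34.1% and 18.3% of all genes. The median difference over the 9 was 0.88 in KO and 1.06 in WT, and over all genes 0.15 in KO and 0.25 in WT. Sesn2, Psat1 and Trib3 had the steepest rises of the 9 in both genotypes. The count of genes called in KO was 3 without KO E2C replicate 1 or 2.

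Sesn2, a leucine sensor that restrains mTORC1 when amino acids are short, rose most. In KO it stood at 0.463 and 0.721 in oocytes, 1.02, 0.906, 1.12 and 0.778 in zygotes, 2.62, 1.59 and 2.75 in early and 57.4, 42.7 and 48.1 in late embryos. In WT it stood at 0.783, 0.57 and 0.736 in oocytes, 1.12, 0.705, 0.852 and 0.86 in zygotes, 5.07, 3.23 and 3.92 in early and 115, 102 and 72.5 in late embryos. Each late library stood above each early one, and each early one above each zygote. The late mean was 21.3 times the early mean in KO (log2 difference 3.93, SE 0.30, adjusted p = 1.21e-09) and 23.7 times it in WT (4.25, SE 0.30, adjusted p = 2.55e-10). The step before, E2C against PN3, was also a rise in KO (0.75, SE 0.23, adjusted p = 0.0262) and in WT (1.42, SE 0.23, adjusted p = 7.79e-05). The KO call at that step ended without KO E2C replicate 1, 2 or 3 (adjusted p = 0.0616 to 0.218), with TPM (0.0643) and with a pseudocount of 0.1 (0.0781).

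Psat1, the aminotransferase that forms phosphoserine, was close to 0 before the 2-cell stage. In KO it was 0.0167 and 0 in oocytes and 0.0716, 0.115, 0 and 0 in zygotes, and in WT 0, 0 and 0.0186 in oocytes and 0.274, 0.199, 0 and 0.0909 in zygotes. Early embryos had 1.21, 0.274 and 1.9 in KO and 0.898, 1.56 and 2.65 in WT, and late embryos 25.5, 13.03 and 13.9 in KO and 51.1, 37.2 and 19.6 in WT. In each genotype every early library stood above every zygote, and every late library above every early one. Late against early, the ratio of means was 15.5 in KO (log2 difference 3.14, SE 0.36, adjusted p = 4.02e-07) and 21.1 in WT (3.73, SE 0.36, adjusted p = 1.78e-08). Early against zygote, Psat1 rose in KO (0.95, SE 0.28, adjusted p = 0.0188) and in WT (1.198, SE 0.28, adjusted p = 0.00229). The KO call at that step ended without KO E2C replicate 1 or 3 (adjusted p = 0.165 to 0.214) and without WT E2C replicate 2 and KO E2C replicate 3 together (0.0711).

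Phgdh, the first enzyme of the pathway, kept a different course. In KO it was 4.21 and 4.07 in oocytes, 2.38, 2.7, 2.998 and 3.54 in zygotes, 2.91, 2.8 and 1.64 in early and 4.18, 5.06 and 6.82 in late embryos. In WT it was 4.25, 5.14 and 4.91 in oocytes, 2.82, 2.53, 3.06 and 3.02 in zygotes, 2.46, 0 and 1.99 in early and 28.4, 12.8 and 7.31 in late embryos. Every zygote stood below every oocyte of its genotype, and every late embryo above every early one. Phgdh fell from oocyte to zygote in KO (−0.40, SE 0.13, adjusted p = 0.0155) and in WT (−0.58, SE 0.12, adjusted p = 0.000333). The KO call ended without KO PN3 replicate 1 (adjusted p = 0.0656) and with TPM (0.0584), with a pseudocount of 0.1 (0.0715), with 1 shared spread (0.776) and with only the groups compared (0.0537), and the WT call with 1 shared spread (0.383). From zygote to early embryo WT differed by −0.82 (0.067), not called, and was called without WT E2C replicate 1 or WT L2C replicate 1 (adjusted p = 0.0374 to 0.0434) and on FPKM as deposited (0.0266), with TPM (0.023) and with a pseudocount of 0.1 (0.0273). Late against early, Phgdh rose in WT (2.78, SE 0.44, adjusted p = 1.23e-05), and the KO difference missed the threshold (0.88, 95% interval −0.019 to 1.78, adjusted p = 0.112); it was called without WT E2C replicate 2 (adjusted p = 0.0386) and with 1 shared spread (0.048) and with only the groups compared (0.0153). The difference between the KO and WT changes was not called (−1.901, 95% interval −3.18 to −0.63, adjusted p = 0.286). It was called without WT L2C replicate 3 (adjusted p = 0.0175) and with 1 shared spread (0.0387).

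Psph, the phosphatase of the last step, was low at every stage. It was 0.258 to 0.438 in KO and 0.307 to 0.474 in WT oocytes, and 0.321 to 0.391 in KO and 0.105 to 0.716 in WT zygotes. Early embryos had 0, 0 and 1.47 in KO and 0, 0 and 0.83 in WT, and late embryos 2.07, 1.4 and 1.5 in KO and 1.6, 1.58 and 1.45 in WT. The early libraries with Psph above 0 were replicate 3 of each genotype, the pair with the highest Rn45s. The late level was higher in KO (0.97, SE 0.38, adjusted p = 0.0458) and in WT (1.06, SE 0.38, adjusted p = 0.0232). Psph was tested through that level, reaching an FPKM of 1 in 1 early and 6 late libraries only, so these values are a description. The KO call ended without KO PN3 replicate 4, KO E2C replicate 1 or 2, WT L2C replicate 2, KO L2C replicate 1, 2 or 3 (adjusted p = 0.0522 to 0.219), and with TPM (0.0617), with a pseudocount of 0.1 (0.0671) and with no filter (0.0737). The WT call ended without WT E2C replicate 1 or 2 or WT L2C replicate 2 (adjusted p = 0.053 to 0.0857). Psph overlaps Cct6a on the other strand, and the sources do not say whether strand was used in quantification, so reads of the pair may be shared.

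Shmt2 varied little by comparison. KO libraries had 11.1 and 10.6 in oocytes, 10.001, 9.81, 11.2 and 13.3 in zygotes, 14.4, 13.3 and 17.3 in early and 13.5, 13.6 and 16.2 in late embryos. WT libraries had 8.93, 9.64 and 9.63 in oocytes, 10.5, 11.3, 11.2 and 11.6 in zygotes, 23.7, 13.1 and 16.6 in early and 12.3, 8.99 and 13.9 in late embryos. In WT it rose from oocyte to zygote (0.22, SE 0.071, adjusted p = 0.0135) and from zygote to early embryo (0.59, SE 0.20, adjusted p = 0.0268). The same steps in KO gave 0.018 and 0.41, neither called. The later KO step was called with only the groups compared (0.044). The first WT call ended without WT MII replicate 1 (adjusted p = 0.0608) and with 1 shared spread (0.514), and the next without WT E2C replicate 1 or 3 (adjusted p = 0.0669 to 0.253) and on FPKM as deposited (0.126) and with TPM (0.0773). Late against early, WT differed by −0.54 (adjusted p = 0.0822), not called, and was called without KO PN3 replicate 4, WT E2C replicate 2 or WT L2C replicate 3 (adjusted p = 0.0202 to 0.045) and with 1 shared spread (0.00858) and without WT E2C replicate 2 and KO E2C replicate 3 together (0.0186).

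Asns, which makes asparagine, ranged from 0.0859 to 1.75 over the 12 KO libraries and from 0 to 1.1 over the 13 WT libraries. With every gene kept in the fit, no stage change and no difference between genotypes of Asns was called. In late embryos it was 1.75, 0.344 and 0.504 in KO and 0.743, 1.1 and 0.367 in WT.

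Atf4 was the most abundant of the 10 in each group. In KO it was 66.04 and 62.1 in oocytes, 75.7, 73.7, 89.1 and 97.3 in zygotes, 64.7, 65.5 and 83.9 in early and 127, 123 and 121 in late embryos. In WT it was 63.1, 69.5 and 72.1 in oocytes, 87.4, 87.6, 89.1 and 94.7 in zygotes, 86.2, 85.4 and 91.9 in early and 138, 123 and 135 in late embryos. Each zygote stood above each oocyte, and each late embryo above each early one, in both genotypes. Zygotes against oocytes, Atf4 rose in KO (0.38, SE 0.070, adjusted p = 0.000132) and in WT (0.39, SE 0.064, adjusted p = 2.31e-05). The late rise was 1.73-fold in KO (log2 difference 0.80, SE 0.23, adjusted p = 0.00868) and 1.5-fold in WT (0.58, SE 0.23, adjusted p = 0.0404). The late call ended in KO without KO E2C replicate 1 or 2 (adjusted p = 0.0529 to 0.053) and in WT without WT E2C replicate 1, 2 or 3, KO E2C replicate 1 or 2, WT L2C replicate 1, 2 or 3 or KO L2C replicate 2 or 3 (adjusted p = 0.0542 to 0.0899) and with no filter (0.0568). The zygote call in KO ended with 1 shared spread (0.0599) and with only the groups compared (0.0561).

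Ddit3, which encodes the stress factor CHOP, was lowest in late embryos, where Sesn2 was highest. In KO it was 47.9 and 45.7 in oocytes, 37.3, 36.6, 33.9 and 36.5 in zygotes, 22.5, 33.9 and 28.3 in early and 17.95, 14.4 and 14.5 in late embryos. In WT it was 32.5, 34.1 and 38.8 in oocytes, 35.3, 37.01, 35.2 and 43.01 in zygotes, 42.1, 30.2 and 18.7 in early and 7.08, 7.78 and 17.6 in late embryos. In each genotype every late library stood below every early one. Late against early, Ddit3 fell in KO (−0.80, SE 0.32, adjusted p = 0.0462) and in WT (−1.44, SE 0.32, adjusted p = 0.000544). From oocyte to zygote it fell in KO (−0.37, SE 0.095, adjusted p = 0.0033), and the WT difference was 0.094 (adjusted p = 0.409). The late call in KO ended without KO MII replicate 1 or 2, WT PN3 replicate 2, KO PN3 replicate 4, KO E2C replicate 1, 2 or 3, KO L2C replicate 1, 2 or 3 (adjusted p = 0.051 to 0.196) and with TPM (0.0524), with a pseudocount of 0.1 (0.062), with no filter (0.0789) and without WT E2C replicate 2 and KO E2C replicate 3 together (0.0671). The zygote call in KO ended with 1 shared spread (0.603). A second annotated gene has the symbol Ddit3, and Mars overlaps the end of Ddit3 on the other strand.

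Trib3 encodes a pseudokinase that binds Atf4. Oocytes had 0.251 and 0.245 in KO and 0.287, 0.293 and 0.244 in WT, and zygotes 0.23 to 0.414 in KO and 0.127 to 0.496 in WT. Early embryos had 0.423, 0.215 and 1.78 in KO and 1.79, 0 and 0.703 in WT, and late embryos 15.8, 11.7 and 9.14 in KO and 12.1, 14.002 and 12.5 in WT. All late libraries stood above all early ones. Late against early, Trib3 rose in KO (2.94, SE 0.35, adjusted p = 5.898e-07) and in WT (3.04, SE 0.35, adjusted p = 1.88e-07), and both calls held whichever single library was left out. Trib3 reached an FPKM of 1 in 2 early and 6 late libraries only. It was thus tested through its late level, and these values are a description.

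Chac1, which degrades glutathione, ranged from 0 to 2.5 in KO libraries and from 0 to 2.44 in WT libraries. Its late 2-cell values were 0.0575, 2.5 and 0.474 in KO and 0.874, 2.44 and 1.56 in WT, and no stage change was called.

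Counts at the earlier steps were small. From oocyte to zygote 2 genes rose and 2 fell in KO (all genes 17.6% and 23.2%), and 2 rose and 1 fell in WT (19.2% and 26.1%). Sesn2 was among the risers in KO (0.30, SE 0.091, adjusted p = 0.0107), a call that ended without KO MII replicate 1 (adjusted p = 0.153) and with 1 shared spread (0.55) and with only the groups compared (0.0786). Psat1 in WT differed by 0.18, not called, and was called with TPM (0.0108) and with a pseudocount of 0.1 (0.00527). From zygote to early embryo 2 rose and 0 fell in KO (8.87% and 12.2%), and 3 rose and 0 fell in WT (12.9% and 18.1%). At that step the median of all genes was 0.00 in KO and −0.052 in WT, and on FPKM as deposited −0.10 in KO and −0.20 in WT. The KO shares rest on 2544 calls, which became 785, 1134 and 1372 without KO E2C replicate 1, 2 or 3, and 3993 without WT E2C replicate 2.

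**Figure D2:**
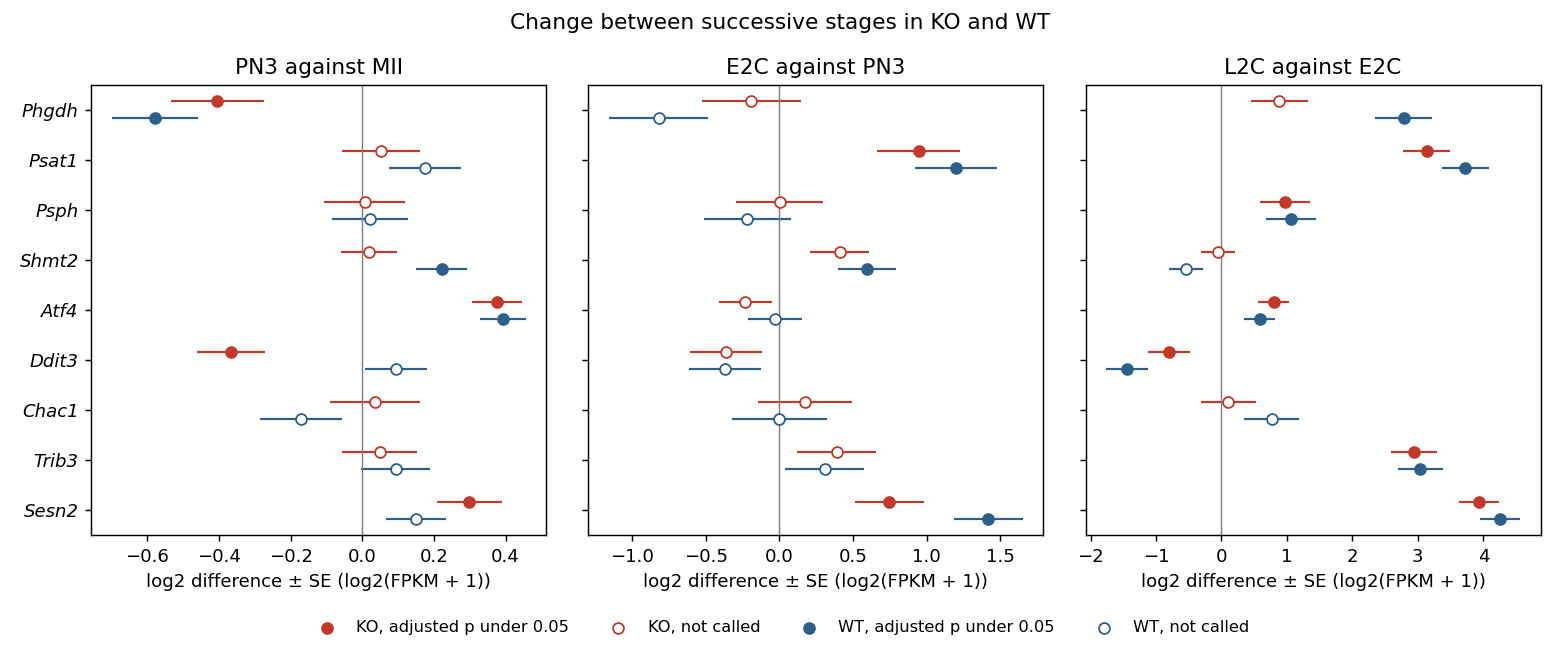
Log2 difference between successive stages, later minus earlier (x axis, with SE), for the 9 tested genes, KO in red and WT in blue; filled points have an adjusted p under 0.05. In the L2C panel Sesn2, Psat1 and Trib3 lie from 2.94 to 4.25, and Phgdh lies at 0.88 in KO and 2.78 in WT.

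KO against WT asks how these RNAs differed where the oocyte had lost Smarca4. Of the 9 genes, 1 was called in oocytes, where 13.0% of all genes tested were. In zygotes 0 of the 9 and 3.05% of all genes were called, in early embryos 0 and 0.00828%, and in late embryos 0 and 0.770%. With limma's unadjusted p under 0.05, 3135 of all 12079 genes tested stood out in oocytes, 1950 in zygotes, 722 in early and 2136 in late embryos. At these stages 3, 0, 0 and 3 of the 9 did so. The median over the 9 genes was −0.059, −0.055, −0.048 and −0.10 in stage order, and over all genes 0.00, 0.00, 0.047 and −0.048. The all-gene count in oocytes, 1567, was 952 without WT MII replicate 1 and 767 without WT MII replicate 2. In zygotes it was 369, and 220, 171 and 215 without WT PN3 replicate 3, KO PN3 replicate 3 or KO PN3 replicate 4, in that order. In early embryos it was 1, 17 without WT E2C replicate 2, 6 without WT E2C replicate 3, 3 without KO E2C replicate 3, and 1 or 2 without any other single library. In late embryos it was 93, 2587 without WT L2C replicate 3, and 4 to 6 without WT L2C replicate 1 or 2 or KO L2C replicate 2 or 3. It was 46 to 60 without WT MII replicate 1, 2 or 3, KO MII replicate 1 or 2, WT PN3 replicate 1, 3 or 4, KO PN3 replicate 2 or 3, WT E2C replicate 2 or KO E2C replicate 2.

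Ddit3 in oocytes was the gene called: KO had 47.9 and 45.7 and WT had 32.5, 34.1 and 38.8. Both KO libraries stood above all 3 WT libraries, a ratio of means of 1.33 (log2 difference 0.41, SE 0.083, adjusted p = 0.00206). The call ended when only oocytes were fitted (adjusted p = 0.0538) and when all stages shared 1 spread (1). The shared spread also ended every oocyte call of a pathway gene named here, and the zygote calls of Ppp1r15a and Hyou1. Shmt2 was also higher in both KO libraries, 11.1 and 10.6 in KO and 8.93, 9.64 and 9.63 in WT (0.19, 95% interval 0.049 to 0.33, adjusted p = 0.0709), and was called without KO PN3 replicate 4 (adjusted p = 0.0369). Phgdh was lower in both KO libraries (−0.16, 95% interval −0.40 to 0.074, adjusted p = 0.413), as was Chac1, with 0.436 and 0.394 in KO and 0.572, 0.831 and 0.666 in WT (−0.25, 95% interval −0.48 to −0.026, adjusted p = 0.14). KO and WT did not overlap for these 4 of the 9 genes, and for 40.4% of all genes.

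In zygotes KO and WT overlapped for all 9 genes, and did not for 10.2% of all genes. The difference for Ddit3 was −0.055 (95% interval −0.26 to 0.15) and for Atf4 −0.10 (−0.25 to 0.047). The 10 oocyte markers summed to 2634 to 2998 in KO and 2451 to 2586 in WT zygotes, without overlap, and their part in the zygote results was not tested. The KO effect on Ddit3 in zygotes minus that in oocytes was not called (−0.46, 95% interval −0.73 to −0.19, adjusted p = 0.0602), where 2.29% of all genes were. It was called without WT MII replicate 3, KO MII replicate 2, WT E2C replicate 3 or WT L2C replicate 3 (adjusted p = 0.0296 to 0.049). The count over all genes, 277, was 644 without KO MII replicate 2, and 184, 136, 143, 170 and 165 without WT MII replicate 1 or 2, KO MII replicate 1, WT PN3 replicate 3 or KO PN3 replicate 3, in that order.

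In early 2-cell embryos Atf4 and Sesn2 had lower values in every KO than in every WT library, as 4.38% of all genes did, and neither was called. Sesn2 had 2.62, 1.59 and 2.75 in KO and 5.07, 3.23 and 3.92 in WT (−0.62, 95% interval −1.27 to 0.043, adjusted p = 0.874). Atf4 had 64.7, 65.5 and 83.9 in KO and 86.2, 85.4 and 91.9 in WT (−0.31, 95% interval −0.81 to 0.20, adjusted p = 0.957). The summed level of 8 markers of the 2-cell stage was 62.2, 54.4 and 136 in KO and 142, 150.1 and 250.1 in WT, lower in each KO library, and its part in the result was not tested.

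**Figure D3:**
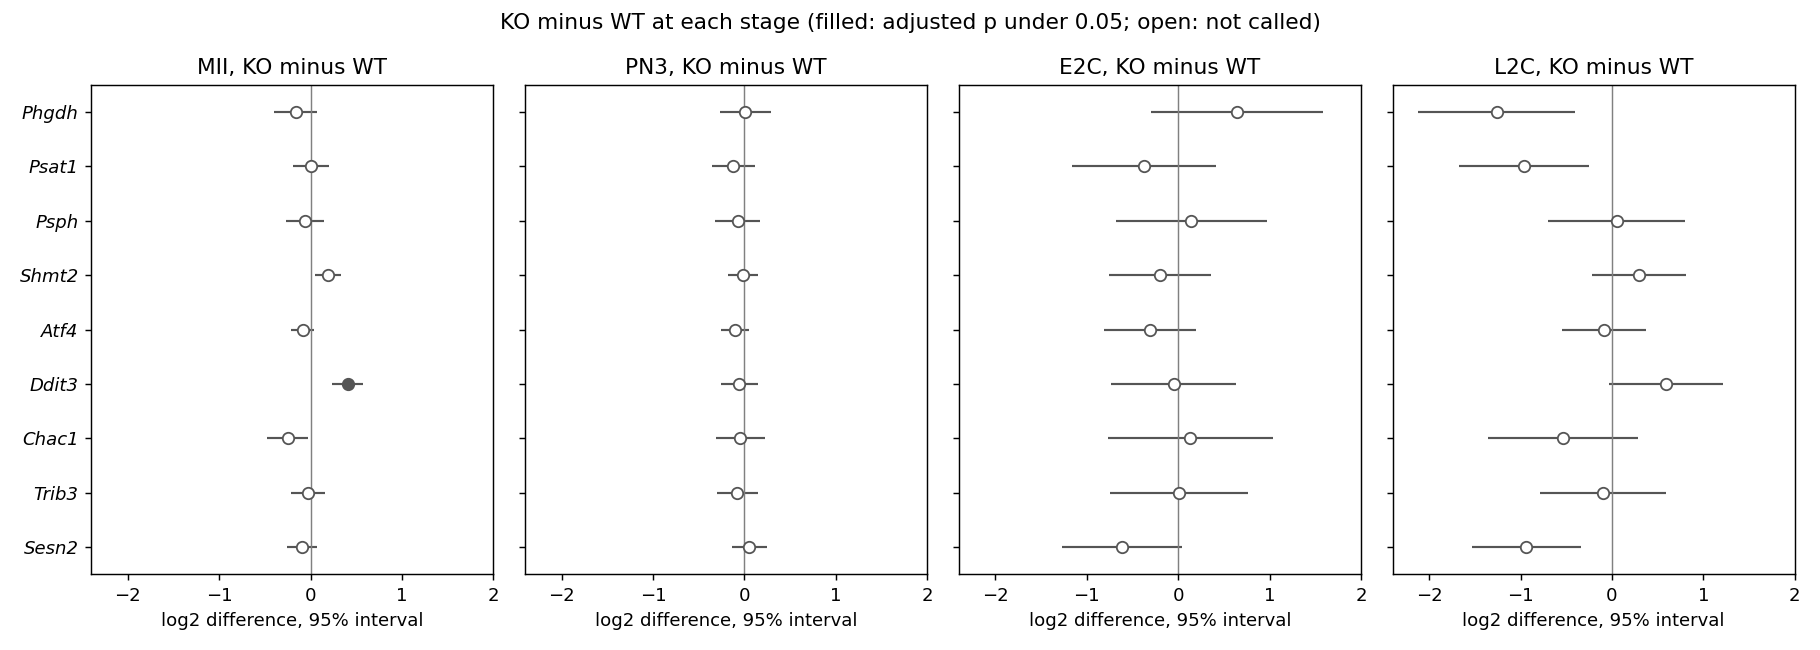
KO minus WT log2 difference (x axis) with its 95% interval for the 9 tested genes at each stage; the filled point is called. Intervals are much wider in 2-cell embryos than in oocytes and zygotes, and at L2C Phgdh, Psat1 and Sesn2 lie at −1.26, −0.96 and −0.93.

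In late 2-cell embryos the values of Phgdh, Psat1 and Sesn2 were lower in KO on average, and no gene of the 9 was called. Sesn2 had 57.4, 42.7 and 48.1 in KO and 115, 102 and 72.5 in WT. All KO libraries stood below all WT libraries, with a ratio of means of 0.512 (log2 difference −0.93, 95% interval −1.53 to −0.34, adjusted p = 0.102). Phgdh had 4.18, 5.06 and 6.82 in KO and 28.4, 12.8 and 7.31 in WT, also without overlap (ratio 0.331, log2 difference −1.26, 95% interval −2.12 to −0.40, adjusted p = 0.118). Psat1 had 25.5, 13.03 and 13.9 in KO and 51.1, 37.2 and 19.6 in WT, and the groups overlapped (ratio 0.486, log2 difference −0.96, 95% interval −1.68 to −0.25, adjusted p = 0.149). Of all genes, 11.4% stood lower in every KO library at this stage. Ddit3 had 17.95, 14.4 and 14.5 in KO and 7.08, 7.78 and 17.6 in WT (0.59, 95% interval −0.030 to 1.22, adjusted p = 0.306).

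Chac1 differed by −0.53 (95% interval −1.35 to 0.29), Trib3 by −0.10 (−0.78 to 0.59), Atf4 by −0.091 (−0.55 to 0.37), Psph by 0.055 (−0.69 to 0.80) and Shmt2 by 0.30 (−0.21 to 0.81). The intervals of Trib3 and Psph still allow differences of over 0.5 log2 units either way. By limma, the KO effect changed from E2C to L2C for 0 of the 9 genes, where 0.00828% of all genes were called and 1381 had an unadjusted p under 0.05, and from PN3 to E2C for 0 of the 9, where 0% were called and 642 had an unadjusted p under 0.05. The 1 gene behind the E2C to L2C share became 840 without WT L2C replicate 3 and 10 without WT E2C replicate 3, and 0 to 2 without any other single library. From PN3 to E2C the count was 3 without WT E2C replicate 2 and 1 without WT E2C replicate 3 or KO L2C replicate 1.

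The late calls depended on WT L2C replicate 3. Of the WT group it had the lowest Phgdh, Psat1 and Sesn2 and the highest Ddit3. Without it all 4 genes were called, Phgdh by −1.69 (adjusted p = 0.00321), Psat1 by −1.33 (0.00428), Sesn2 by −1.13 (0.00609) and Ddit3 by 0.97 (0.00834). Leaving out this library also raised the count over all 12079 genes tested from 93 to 2587. With it as the only WT library the differences were −0.41 for Phgdh, −0.22 for Psat1, −0.55 for Sesn2 and −0.17 for Ddit3, values from a single WT library from which no test is read. With 1 shared spread Phgdh, Psat1 and Sesn2 were called (0.0272, 0.0405 and 0.00469). That setting takes no account of the wider spread of 2-cell libraries. It also called many more of all genes in late embryos than the main fit, as the counts below show. The 10 oocyte markers summed to 1571, 1854 and 1871 in KO and 986, 941 and 1723 in WT, and the 8 markers of the 2-cell stage to 151, 186 and 189.6 in KO and 84.6, 75.2 and 235 in WT. WT replicate 3 lay within the KO range for the oocyte markers and above it for the others. The part of these markers in the result was not tested.

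**Figure D4:**
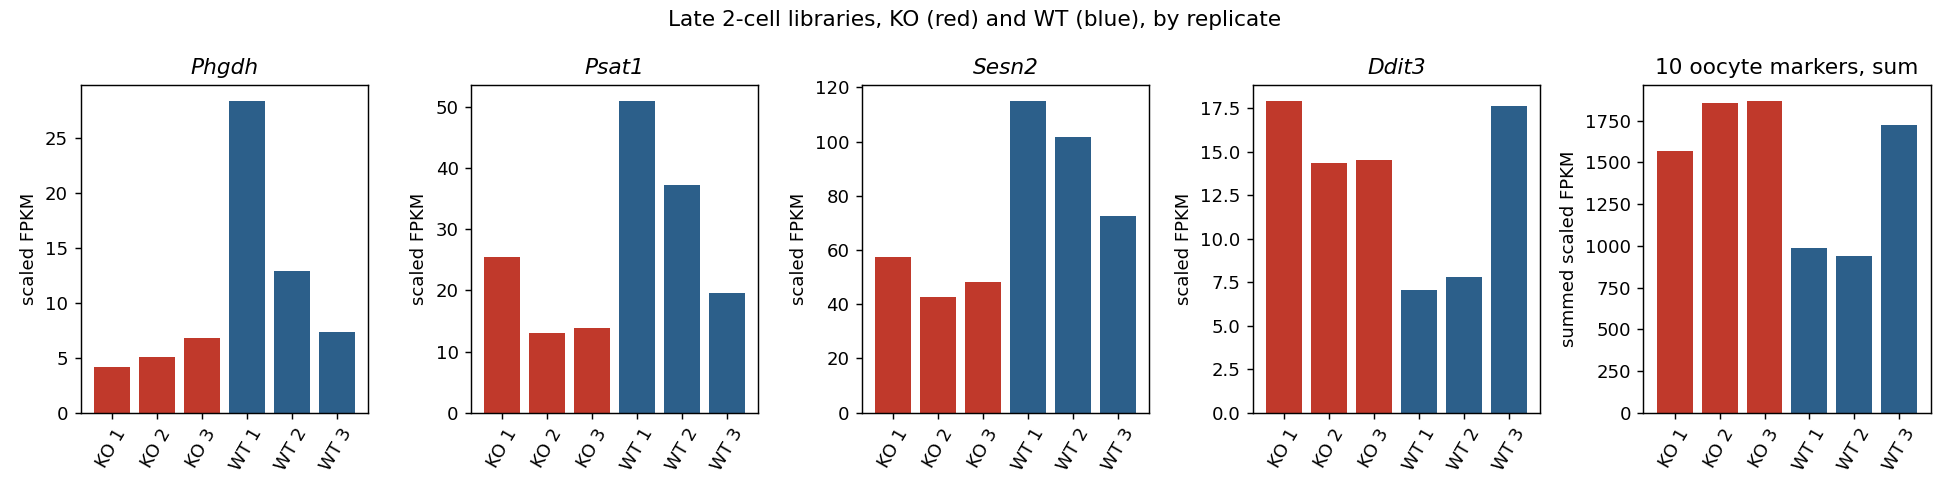
Scaled FPKM of Phgdh, Psat1, Sesn2 and Ddit3 and the summed scaled FPKM of 10 oocyte markers (y axes) in each late 2-cell library, KO bars left of WT bars. WT 3 has an oocyte marker sum of 1723, inside the KO range of 1571 to 1871, and lies nearest to KO among WT libraries for Phgdh, Psat1 and Sesn2.

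The rest of the serine and one-carbon list (20 genes tested of 24) moved in both directions between the 2-cell stages. Late against early, 8 rose and 4 fell in KO (median 0.29, all genes 26.8% and 14.0%). In WT 9 rose and 4 fell (median 0.39, all genes 34.1% and 18.3%). Chosen after their values were seen, Gldc and Gcsh of the glycine cleavage system rose, Gldc by 3.63 in KO and 4.396 in WT and Gcsh by 4.16 in KO and 3.96 in WT. Shmt1, the cytosolic form of Shmt2, rose by 2.69 in KO and 3.45 in WT. Mthfd2, a mitochondrial folate enzyme, was the gene of this list called between genotypes in late embryos, with 77.4, 92.2 and 90.8 in KO and 30.6, 46.5 and 66.2 in WT (0.91, SE 0.20, adjusted p = 0.0366). The call ended without WT E2C replicate 2, WT L2C replicate 1 or 2 or KO L2C replicate 2 or 3 (adjusted p = 0.0538 to 0.267) and with only the groups compared (0.295) and without WT E2C replicate 2 and KO E2C replicate 3 together (0.0654). Gldc had 24.1, 18.2 and 21.5 in KO and 78.5, 66.1 and 24.5 in WT (−1.22, adjusted p = 0.0727), not called. In oocytes Mtr, methionine synthase, was higher in KO (0.20, SE 0.063, adjusted p = 0.0434), a call lost without WT MII replicate 1 or 2, KO MII replicate 1, WT PN3 replicate 4, WT E2C replicate 2 or WT L2C replicate 3 (adjusted p = 0.05004 to 0.284) and on FPKM as deposited (0.142), with TPM (0.0599) and with only the groups compared (0.18).

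Of the eIF2alpha kinases, phosphatase and eIF2 subunits, 18 genes were tested. Between the 2-cell stages 6 of them rose and 5 fell in KO (median 0.55, all genes 26.8% and 14.0%). In WT 11 rose and 3 fell (median 0.84, all genes 34.1% and 18.3%). Ppp1r15a, the stress-induced subunit of the eIF2alpha phosphatase, was higher in every KO library in oocytes and in zygotes. In oocytes it had 42.9 and 41.2 in KO and 35.03, 33.5 and 35.7 in WT (0.27, SE 0.058, adjusted p = 0.00332). In zygotes it had 29.6, 30.9, 30.1 and 29.7 in KO and 27.1, 24.9, 21.2 and 23.1 in WT (0.31, SE 0.068, adjusted p = 0.0103), and this call ended when only zygotes were fitted (0.093) and without WT PN3 replicate 3 (adjusted p = 0.065). Eif2ak3, the endoplasmic reticulum kinase PERK, was lower in KO oocytes, with 0.856 and 0.887 in KO and 1.27, 1.26 and 1.29 in WT (−0.28, SE 0.069, adjusted p = 0.00877, and 0.0645 with oocytes alone).

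Among 27 tested genes of a list of other Atf4 targets, 0 were higher and 5 lower in KO oocytes (13.0% of all genes were called there, and 3.05% in zygotes), 0 higher and 1 lower in KO zygotes, and 0 were called in 2-cell embryos (median −0.0048 in oocytes and 0.011 in zygotes). Stc2, a secreted glycoprotein induced by stress, was lower in KO than in WT in oocytes and in zygotes. It had 1.87 and 0.583 in KO and 3.26, 3.22 and 3.67 in WT oocytes (−1.04, SE 0.16, adjusted p = 0.000105, and 0.069 with oocytes alone). In zygotes it had 0.985, 1.06, 0.786 and 0.508 in KO and 4.64, 4.38, 4.61 and 3.73 in WT (−1.55, SE 0.19, adjusted p = 2.26e-05, and 0.000323 with zygotes alone). Got1, the cytosolic aspartate aminotransferase, had 4.07 and 5.05 in KO and 8.19, 8.91 and 8.9 in WT oocytes (−0.80, SE 0.10, adjusted p = 1.32e-05, and 0.0176 with oocytes alone). The differences of Hspa9, Rars2 and Map1lc3b, also lower in KO, were −0.21, −0.42 and −0.27, and none of these was called with oocytes alone (adjusted p = 0.0628, 0.0923 and 0.15). Single libraries also decided Rars2, lost without WT MII replicate 1 or 2 or KO MII replicate 1 (adjusted p = 0.0964 to 0.257) and with TPM (0.116) and with a pseudocount of 0.1 (0.239), and Map1lc3b, lost without WT MII replicate 1, 2 or 3 or KO MII replicate 1 (adjusted p = 0.053 to 0.349). By limma, the KO effect in zygotes minus that in oocytes was called for Got1 (0.89, SE 0.16, adjusted p = 0.00329). Over all genes 2.29% were called so, and this call was not followed through the alternatives. Between the 2-cell stages 10 of the list rose and 2 fell in KO (all genes 26.8% and 14.0%). In WT 11 rose and 4 fell (all genes 34.1% and 18.3%).

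Of 14 tested bZIP factors of the stress response, 0 were higher and 2 lower in KO oocytes (median −0.014). Of all genes 13.0% were called there, with a median of 0.00. Between the 2-cell stages 3 of the factors rose and 4 fell in KO (all genes 26.8% and 14.0%). In WT 3 rose and 3 fell (all genes 34.1% and 18.3%). Cebpb, a C/EBP factor, had 12.1 and 9.63 in KO and 15.5, 15.3 and 14.97 in WT (−0.46, SE 0.12, adjusted p = 0.0168), lost with oocytes alone (0.0571) and without WT MII replicate 1, 2 or 3 or KO MII replicate 2 (adjusted p = 0.0517 to 0.131). Atf3, a stress-induced repressor, had 0.131 and 0.21 in KO and 0.444, 0.512 and 0.397 in WT (−0.31, SE 0.086, adjusted p = 0.0185), lost without WT MII replicate 1 or 2 or KO MII replicate 1 (adjusted p = 0.0596 to 0.108). All these Atf3 values lie under 1, and the depth behind them is unknown. In late 2-cell embryos Cebpa was higher, with 7.82, 3.68 and 4.41 in KO and 1.37, 0.582 and 1.67 in WT (1.49, SE 0.26, adjusted p = 0.0117). That call ended without WT L2C replicate 2 or KO L2C replicate 3 (adjusted p = 0.0692 to 0.0835) and with a pseudocount of 0.1 (0.112) and with only the groups compared (0.295).

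Of 22 tested genes of the IRE1 and ATF6 arms of the unfolded protein response, 6 were higher and 1 lower in KO oocytes, against 13.0% of all genes called in either direction (median 0.12, and 0.00 over all genes). Pdia6, a disulfide isomerase, had 66.7 and 68.6 in KO and 42.02, 43.8 and 46.02 in WT (0.61, SE 0.080, adjusted p = 1.73e-05). Calr, the chaperone calreticulin, had 265 and 259 in KO and 201, 196 and 204 in WT (0.38, SE 0.045, adjusted p = 6.81e-06). Pdia4, Pdia3, Dnajb11 and Ern1 were higher by 0.27, 0.21, 0.23 and 0.27, and the difference of Mbtps1, lower in KO, was −0.22. With oocytes alone Pdia6, Calr, Pdia4 and Dnajb11 were called (adjusted p = 0.0147, 0.0161, 0.0454 and 0.0469), and Pdia3, Ern1 and Mbtps1 were not (0.0622, 0.222 and 0.101). Single libraries decided Pdia3, lost without WT MII replicate 2 or 3 (adjusted p = 0.0536 to 0.0569), Dnajb11, lost without WT MII replicate 1, 2 or 3, KO MII replicate 2 or WT E2C replicate 2 (adjusted p = 0.0556 to 0.101) and on FPKM as deposited (0.0938) and without WT E2C replicate 2 and KO E2C replicate 3 together (0.0668), Ern1, lost without WT MII replicate 1 or 2 or KO MII replicate 1 (adjusted p = 0.0566 to 0.436) and on FPKM as deposited (0.0756), and Mbtps1, lost without WT MII replicate 1, 2 or 3 or KO MII replicate 2 (adjusted p = 0.0568 to 0.117). In zygotes Hyou1, a chaperone, was higher in KO (0.48, SE 0.11, adjusted p = 0.0182), a call lost with zygotes alone (0.133) and without WT PN3 replicate 1 or 2 or KO PN3 replicate 3 or 4 (adjusted p = 0.0623 to 0.0847). By limma, the KO effect in zygotes minus that in oocytes was called for Mbtps1 (0.43, SE 0.099, adjusted p = 0.0196). It was also called for Calr (−0.27, SE 0.070, adjusted p = 0.0395), and for 2.29% of all genes. These calls were not followed through the alternatives. Between the 2-cell stages 9 of the list rose and 1 fell in KO (all genes 26.8% and 14.0%). In WT 13 rose and 1 fell (all genes 34.1% and 18.3%).

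In the list of other sestrins, tribbles and nutrient sensors (18 tested), 4 genes were higher and 0 lower in KO oocytes, against 13.0% of all genes called (median 0.084, and 0.00 over all genes). They were Mtor by 0.36, Tfe3 by 0.29, Depdc5 by 0.24 and Sesn3 by 0.25. With oocytes alone none of the 4 was called (adjusted p = 0.0836, 0.0891, 0.141 and 0.137). Tfe3 was also lost without WT MII replicate 2 or KO MII replicate 1 (adjusted p = 0.0652 to 0.157), Depdc5 without WT MII replicate 1 or 2 (adjusted p = 0.0622 to 0.107) and Sesn3 without WT MII replicate 1 or KO MII replicate 1 or 2 (adjusted p = 0.0506 to 0.156) and on FPKM as deposited (0.0609). Between the 2-cell stages 4 of the list rose and 4 fell in KO (all genes 26.8% and 14.0%). In WT 7 rose and 4 fell (all genes 34.1% and 18.3%). In early embryos no gene of the 6 pathway lists was called between KO and WT. The 10 oocyte markers summed to 4028 and 4175 in KO and 3838, 3893 and 3826 in WT oocytes, higher in both KO libraries, and their part in the oocyte results was not tested.

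As a description over the 25 libraries, which share 4 stages, Pearson's r of log2 levels was 0.989 for Psat1 and Sesn2, 0.97 for Sesn2 and Trib3 and 0.955 for Psat1 and Trib3. Phgdh had 0.605 with Psat1, and Ddit3 had −0.934 with it. Among all genes tested, the closest in pattern to Sesn2 were Purb (0.995) and Nol11 (0.994), to Psat1 Pdp2 (0.994) and Mcl1 (0.992) and to Trib3 Cct6a (0.99) and Wdr77 (0.989). Those closest to Phgdh were Pla2g15 (0.956) and Rbmxl1 (0.95), to Ddit3 Mipep (0.947) and Cited2 (0.942) and to Atf4 Phf23 (0.926) and Ric1 (0.914). For Psph they were Sfrp1 (0.907) and Gm10697 (0.906), for Shmt2 Vim (0.887) and Aldh18a1 (0.88), for Chac1 Snhg7 (0.766) and Ric8 (0.751) and for Asns Cog7 (0.792) and Fbxw5 (0.77).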

How the data were processed

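The deposited files hold FPKM per gene symbol and library, made by the authors, with no read counts. Trim Galore 0.4.5, HISAT2, HTSeq and StringTie are named in the submitters' processing notes, as are GRCm38 and mm10, with no role or order. Per the labels' protocols, total RNA was depleted of ribosomal RNA and made into stranded libraries, read in pairs of 150 bp.

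Libraries were rescaled by the median ratio over 6492 genes with FPKM of at least 1 throughout. The 12079 genes that reached 1 in 3 or more libraries were fitted as log2(value + 1) with limma 3.58.1 (R 4.3.3; trend and robust options), with 8 group means and 17 residual degrees of freedom. Because spread within groups differed by stage, each stage had a weight estimated by limma (MII 5.25, PN3 2.26, E2C 0.265, L2C 0.32). A gene's own spread can depart from its stage's weight, so fits of only the groups compared are quoted where they end a call. P-values were adjusted by Benjamini-Hochberg over all genes, with 0.05 as the threshold. The fit was also run on simulated data. Their spreads were taken from these same libraries, so that run is no separate check of the spread.

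Same-numbered replicates were not taken as pairs. Besides the 10 genes and Smarca4, the text names pathway genes called in any comparison of KO with WT (each list had at least 1), and the 2 genes most like each member. Gldc, Gcsh and Shmt1 fall outside this rule and were chosen after their values were seen. Members and lists were chosen with earlier results of these data known. Alternatives were unscaled FPKM, TPM, a pseudocount of 0.1, no filter or a filter of 5, a shared spread, a replicate block, and leaving out libraries. Figures used matplotlib 3.10.9.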

Additional observations from a re-analysis of the deposited data

Results flagged for a closer look

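For 5 pathway genes named above, of 33 members and named pathway genes, every KO library stood above every WT library at one stage and below at another. Of all 12079 genes tested, 6.10% did so, and the named pathway genes were themselves picked by a KO and WT difference. The values are KO minus WT on the log2 scale. Dnajb11 was at 0.23 in oocytes and 0.27 in zygotes, with KO above, and at −0.75 in late 2-cell embryos, with KO below. Pdia6 was at 0.61 in oocytes and −0.50 in late embryos. Pdia3 was at 0.21 in oocytes, 0.65 in early and −0.42 in late embryos. Hyou1 was at 0.48 in zygotes and −0.42 in late embryos. Mthfd2 was at 0.15 in zygotes, −0.40 in early and 0.91 in late embryos. Differences between stages that do not follow each other were not tested. Between successive stages, the change of the KO effect was not called for Mthfd2 (E2C minus PN3 −0.54, adjusted p = 0.91, and L2C minus E2C 1.31, adjusted p = 0.253) or for Pdia3 (L2C minus E2C −1.07, adjusted p = 0.264).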

How the results depend on the processing

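Over 35 alternatives, 4069 values of the 9 genes included 73 lost and 34 gained calls, and none called changed sign, while uncalled values changed sign 103 times. KO against WT called 1567 genes in oocytes, 369 in zygotes, 1 in early and 93 in late embryos. With 1 shared spread these were 1, 10, 212 and 1873, and of the 9 genes 0 were called in oocytes, 3 in late embryos, 1 at WT PN3 against MII, 0 at KO PN3 against MII and 1 for the KO effect at L2C minus E2C. With only the groups compared they were 424, 94, 0 and 0, with 0 of the 9 in oocytes and 1 at KO PN3 against MII. With the replicate block 879, 1084, 1 and 152 were called, and 1 of the 9 (Ddit3) for the KO effect at PN3 minus MII. Each library's deviations from its group mean were compared over genes between KO and WT of a stage. These deviations correlated at −0.18 to 0.43 for same-numbered libraries, and the numbers were not taken as pairs. Deviations cancel within a group, so these correlations depend on each other. In zygotes same-numbered pairs had 0.013 to 0.43, and differently numbered ones −0.40 to 0.30. In early embryos these ranges were 0.067 to 0.16 and −0.12 to 0.0009. In oocytes and late embryos same-numbered pairs went both ways. Whether the numbers mark shared batches is not stated, and the main fit leaves out any such structure. No filter gave 5 genes in early embryos and a filter of 5 gave 144 in late embryos. KO E2C against PN3 called 1 of the 9 with TPM and 1 with a pseudocount of 0.1. The next 2 alternatives were chosen after seeing the data. Without WT E2C replicate 2 (few genes above 0) and KO E2C replicate 3 (the KO library nearest WT in Smarca4 at that stage), 33 genes were called in early and 34 in late embryos, and 1 of the 9 at KO E2C against PN3. Without WT L2C replicates 1 and 2 a single WT library is left, assumed to vary like the other groups, so its lost calls say little. There the counts were 5 and 6, with 4 of the 9 at WT L2C against E2C and 1 for the KO effect at PN3 minus MII.

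Leaving out single libraries, all genes called ranged over 767 to 2045 in oocytes, 171 to 375 in zygotes, 1 to 17 in early and 4 to 2587 in late embryos (the highest without WT L2C replicate 3). Of the 9 genes, 1 to 2 were called in oocytes, 0 to 4 in late embryos, 0 to 2 at KO E2C against PN3, 3 to 7 at KO L2C against E2C, 0 to 1 for the KO effect at PN3 minus MII and 0 to 1 at L2C minus E2C. All genes called ranged over 785 to 3993 at KO E2C against PN3, 136 to 644 for the KO effect at PN3 minus MII, 0 to 3 at E2C minus PN3 and 0 to 840 at L2C minus E2C. Calls in oocytes were 723 higher and 844 lower and, on FPKM as deposited, 428 higher and 1187 lower. In late embryos they were 54 higher and 39 lower and, with TPM, 117 higher and 19 lower. For E2C against PN3 they were 1071 higher and 1473 lower in KO and 1560 higher and 2181 lower in WT, and as deposited 653 higher and 2093 lower in KO and 938 higher and 3039 lower in WT. The causes were not tested. Depth is unknown, and for Asns and Chac1, near 0 in most libraries, only large differences could have been seen.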
